A study of Mus musculus with 8 samples.

Results

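Macrophage cluster 12 was the cluster of graft macrophages with the highest level of Arg1, the gene of arginase 1. It held 651 cells, 9.07% of the 7179 macrophages and 2.90% of all 22441 CD45+ cells. Its members were chosen by Arg1 itself: the cells that the authors had labelled as macrophages were grouped by the authors' cluster number, clusters with at least 50 macrophages were kept, and the cluster with the highest summed level of Arg1 transcripts was taken. All 6 clusters that held macrophages met that minimum, the smallest with 551 cells, so no cluster lay near it. Every cell of cluster 12 carried the macrophage label. Because the cells had been clustered on their genes and the cluster taken for Arg1, each level in it against other macrophages is a description and has no test.

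The cells came from NIT-1 grafts. NIT-1 is a beta cell line from an insulinoma of a NOD mouse, the strain that develops autoimmune diabetes spontaneously. WT and Rnls mutant NIT-1 cells had been placed under the skin of opposite flanks of mice. For this transfer model the paper names NOD.scid recipients, and NSG mice in some experiments. NOD.scid mice lack T and B lymphocytes of their own but keep macrophages. The paper's text on the single cells speaks of NOD mice, and its methods for them name no recipient strain. All recipients then received splenocytes of recently diabetic NOD mice through a vein. Grafts were taken 10 or 17 days later, and living CD45+ cells (white blood cells) were sorted and sequenced as single cells from the 3' end. There were 4 groups, Rnls mutant day 10, Rnls mutant day 17, WT day 10 and WT day 17, each of 4 grafts that a hashtag number told apart. The Rnls mutation was carried by the grafted beta cells and not by the mice, so genotype here is that of the graft around the macrophage. Each group was 1 sequencing library, so that a difference between genotypes or days cannot be told apart from a difference between libraries. The labels call the cells beta cells, but the beta cell markers summed to 0.199 CPM (transcripts counted, scaled to a total of 1e6) in the cluster and Ins1 and Ins2, the insulin genes, were at 0. Rnls was not analysed here.

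Macrophages use arginase 1 to split arginine into ornithine and urea. Ornithine feeds polyamines, through ornithine decarboxylase (Odc1), and proline, and the reaction draws on the same arginine that nitric oxide synthase (Nos2) uses. Arg1 is a classic gene of macrophages activated by interleukin-4, in which it appears with Retnla, Mrc1, Mgl2, Ccl17 and Ccl24, and it is also a gene of macrophages under hypoxia or high lactate, in tumours among other tissues. Arg1 (ENSMUSG00000019987) lies on the minus strand of GRCm38 at chr10:24915221-24927484.

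The 651 cells gave 1915 Arg1 UMIs (unique molecular identifiers, each a counted transcript) among 5032678 UMIs, or 381 CPM (95% Poisson interval 364 to 398, which covers counting error only). Cluster 4 followed with 141 CPM, cluster 5 with 110 CPM and cluster 2 with 71.9 CPM. Clusters 10 and 13 were lowest, at 11.7 and 3.77 CPM, and the 6528 other macrophages together held 84.1 CPM. Monocytes held 13.9 CPM, and CD4 T cells, CD8 T cells and NK cells between 1.04 and 1.67 CPM. Arg1 UMIs thus lay mainly in macrophages, and were spread over 4 of their clusters rather than held in 1.

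**Figure D1:**
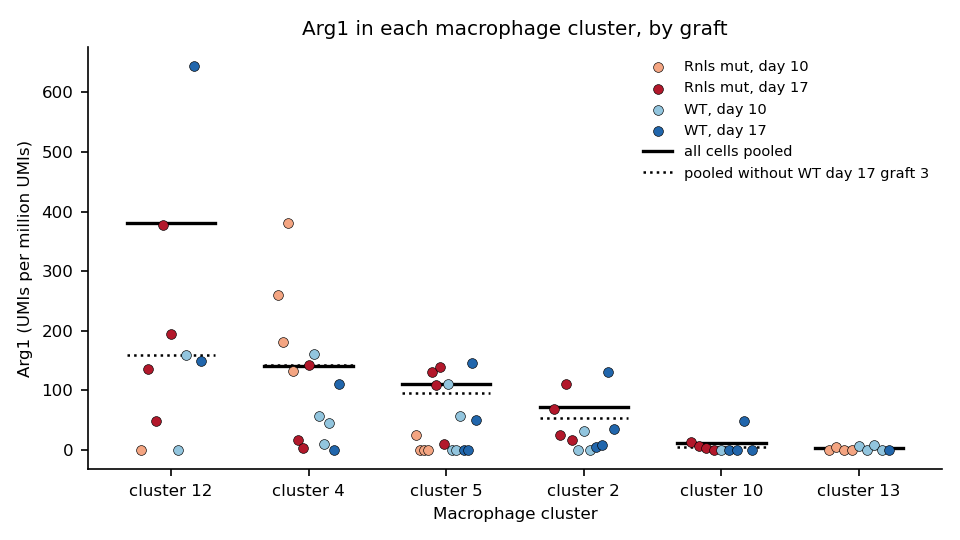
Arg1 CPM per graft in each of the 6 macrophage clusters, for grafts with at least 10 cells of the cluster; points are grafts, coloured by group, solid bars mark the level with all cells of the cluster pooled and dotted bars that level without WT day 17 graft 3. Cluster 12 has the highest pooled level, 381 CPM, and its highest point is WT day 17 graft 3 at 644 CPM.

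The lead of cluster 12 leaned on 1 graft. WT day 17 graft 3 gave 31.8% of its cells, 45.5% of its UMIs and 77.1% of its Arg1 UMIs. Without that graft, an alternative chosen after seeing the data, cluster 12 stood at 160 CPM against 143 CPM in cluster 4, 95.9 CPM in cluster 5 and 54.2 CPM in cluster 2, so that it still ranked highest but by little. With each graft of 10 or more cells given equal weight, the mean was 190 CPM over 9 grafts in cluster 12 and 115 CPM over 13 grafts in cluster 4, and the medians were 149.5 and 109.9 CPM. Against other macrophages the pooled log2 ratio of Arg1 was 2.17, and 1.04 without WT day 17 graft 3. Its mean over the 9 grafts, with 1 CPM added, was 0.06 ± 3.97 (SD, n = 9), since 2 grafts had no Arg1 UMI in the cluster.

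Arg1 varied widely between the grafts that held 10 or more cells of the cluster. In Rnls mutant day 17 grafts 1 to 4 it was 136, 48.8, 378 and 195 CPM. In WT day 17 grafts 3 and 4 it was 644 and 149.5 CPM, and in WT day 10 graft 4 it was 160 CPM. No Arg1 UMI was found in the 13 cells of Rnls mutant day 10 graft 3 or the 14 cells of WT day 10 graft 2, where a count of 0 allows up to 22.5 and 27.9 CPM (3 counts of the total). Both grafts held Arg1 in other macrophages, at 256 and 37.3 CPM, where cluster 4 carried it. Cluster 12 had the highest Arg1 of the clusters in 6 of the 9 grafts, and in Rnls mutant day 17 graft 2 cluster 5 was above it (108 against 48.8 CPM). Its rank by pooled level thus held in 5 of 6 grafts at day 17 and in 1 of 3 at day 10.

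Arg1 was also uneven between the cells of the cluster. At least 1 Arg1 UMI was found in 181 cells, 27.8% (95% exact interval 24.4 to 31.4), against 9.99% of other macrophages. The cluster was read more deeply, with a median of 6941 UMIs a cell against 4606.5, and with every cell thinned to 1000 UMIs the shares were 12.4% and 5.24%. In CD4 T cells, which should lack the gene, the share was 0.472% at a median of 2823.5 UMIs, and in dendritic cells, nearly as deep as the cluster, it was 0.362% at 6281.5 UMIs. The 10 cells richest in Arg1 gave 27.6% of its UMIs, 1 cell alone held 126, 66 cells held 10 or more, and 54 cells held 1 or 2. Most cells of the cluster highest in Arg1 thus had no Arg1 UMI at this depth.

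The label of macrophage held. All 10 macrophage markers were present and summed to between 15917 and 27181 CPM over the 9 grafts. T cell markers summed to 91.4 CPM with Cd8a and Cd8b1 at 0, B cell markers to 20.3 CPM with Cd79a, Ms4a1, Ighd and Pax5 among those at 0, dendritic cell markers to 74.5 CPM with Flt3 at 0, and granulocyte markers to 115 CPM against 68305 CPM in granulocytes. The 16 grafts held between 1742746 and 9729233 UMIs. Of the barcodes, 42 occurred in more than 1 library, and 1 of these was a cell of the cluster.

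Beside Arg1, cluster 12 differed from the other macrophages pooled by a group of secreted and monocyte-type genes, several of them shared with cluster 10 or 5. The first of them was Fn1, fibronectin, a matrix glycoprotein (GRCm38 chr1:71585520-71653200, minus strand). Fn1 was 1906 CPM in the cluster and 398 CPM in other macrophages, a log2 ratio of 2.26. Among the other clusters only cluster 10 came close, at 1873 CPM, and cluster 5 held 402 CPM, cluster 2 75.9 CPM, cluster 4 65.6 CPM and cluster 13 3.50 CPM. Lyz1, a lysozyme, followed with 2869 against 622 CPM (log2 ratio 2.20). Both genes were higher in the cluster in 9 of 9 grafts, whereas Arg1 was in 7.

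**Figure D2:**
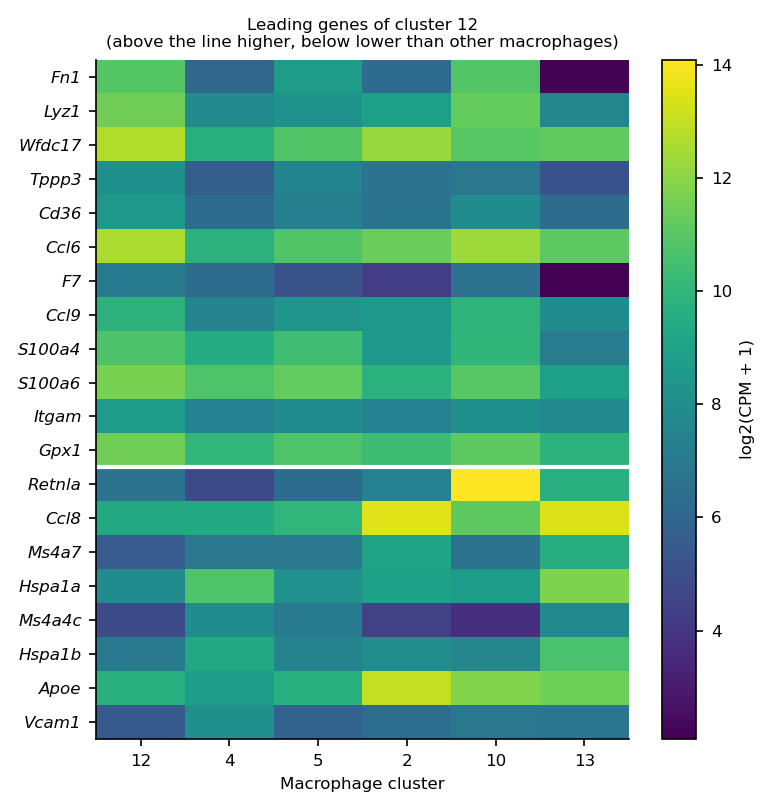
Pooled level of the 12 leading higher genes (above the white line) and the 8 leading lower genes (below it) in each of the 6 macrophage clusters, with colour giving log2(CPM + 1). Fn1 is high in clusters 12 and 10 alike, at 1906 and 1873 CPM, and Retnla is high in cluster 10, at 17357 CPM against 99.7 CPM in cluster 12.

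The other leading genes belonged to chemokines, scavenging and calcium binding. Wfdc17, a small secreted protein of the whey acidic protein family, was 6705 against 2283 CPM (log2 ratio 1.55), and Ccl6, a CC chemokine of mouse myeloid cells, 6319 against 2285 CPM (1.47). Its neighbour Ccl9 was 893 CPM in the cluster and 939 CPM in cluster 10. Cd36, the scavenger receptor for fatty acids and oxidised lipoproteins, was 355 against 124 CPM (1.51), and Itgam, the integrin chain CD11b, 415 against 200.1 CPM (1.05). S100a4 and S100a6, calcium-binding proteins, had log2 ratios of 1.22 and 1.07, F7, coagulation factor VII, 1.42, Tppp3 1.51 and Gpx1, glutathione peroxidase, 1.04. All of these were higher in each of the 9 grafts, as the rule that named them required. Among 3374 genes at 50 CPM or more in either population, 24 (0.711%) were at least 2-fold higher in the cluster and 77 (2.28%) at least 2-fold lower. Of the same genes 47.5% were higher at all and 52.5% lower, and 2.7% were higher, and 5.01% lower, in each of the 9 grafts.

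Among the genes lower in cluster 12 stood Retnla and Clec10a, genes of alternative activation and the 2 of 18 members of that list past 2-fold lower. Retnla, the secreted protein also called RELM alpha or FIZZ1, was 99.7 CPM in the cluster and 2772 CPM in other macrophages, a log2 ratio of -4.78. That gap came from cluster 10, with 17357 CPM, and clusters 4 and 5 were lower than or near cluster 12, at 25.6 and 79.3 CPM. Clec10a, a galactose lectin of such cells, was 47.7 against 156 CPM. Ccl8, a monocyte chemokine, was 661 against 4860 CPM (log2 ratio -2.88), Apoe, the lipid carrier, 831 against 3068 CPM (-1.88), and the adhesion molecule Vcam1 44.3 against 147 CPM (-1.71). Ms4a7, Ms4a4c and the heat shock genes Hspa1a and Hspa1b completed the 8 lowest. High Arg1 and high Retnla therefore lay in different macrophage clusters.

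By the whole transcriptome cluster 12 was closest to cluster 5. Of the genes at 50 CPM or more in either, 2.29% differed by at least 2-fold between clusters 12 and 5, against 4.70% for cluster 10, 8.69% for cluster 2, 10.5% for cluster 4 and 12.8% for cluster 13. By the correlation of log2 levels across genes, which are not independent replicates, the order was cluster 5 (r = 0.94), 10 (0.911), 4 (0.879), 2 (0.859) and 13 (0.818). Cluster 4, the second in Arg1, stood behind clusters 5 and 10 by both measures, and cluster 10, which shared its Fn1 and Lyz1, held almost no Arg1.

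Gene lists showed what else the cluster carried, each as counts over members at 50 CPM or more and the median log2 ratio to other macrophages, beside a median of -0.015 over the 3374 genes. Glycolysis stood higher: 13 of 16 members were above other macrophages, with a median of 0.45, and 8 were higher in each graft. Slc16a3, the lactate exporter MCT4, was 142 against 80.4 CPM, Ldha, lactate dehydrogenase, 748 against 455 CPM, and Pgk1, phosphoglycerate kinase, 497 against 315 CPM. Without WT day 17 graft 3 the glycolysis median was 0.25, with 12 of 16 higher. Of the hypoxia genes 12 of 18 were higher, with a median of 0.17, and without that graft 9 of 18, with a median of -0.07. Anxa2, annexin A2, was 1134 against 554 CPM in that list. Hilpda, a lipid droplet protein, was 301 against 182 CPM, but 1076 of its 1514 UMIs in the cluster came from WT day 17 graft 3, without which it was 160 against 180 CPM. Slc2a1, the glucose transporter, was 60.0 against 62.2 CPM. Vegfa was 146 against 158 CPM pooled, but higher in the cluster in 7 of the 9 grafts, among them all 6 of day 17.

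**Figure D3:**
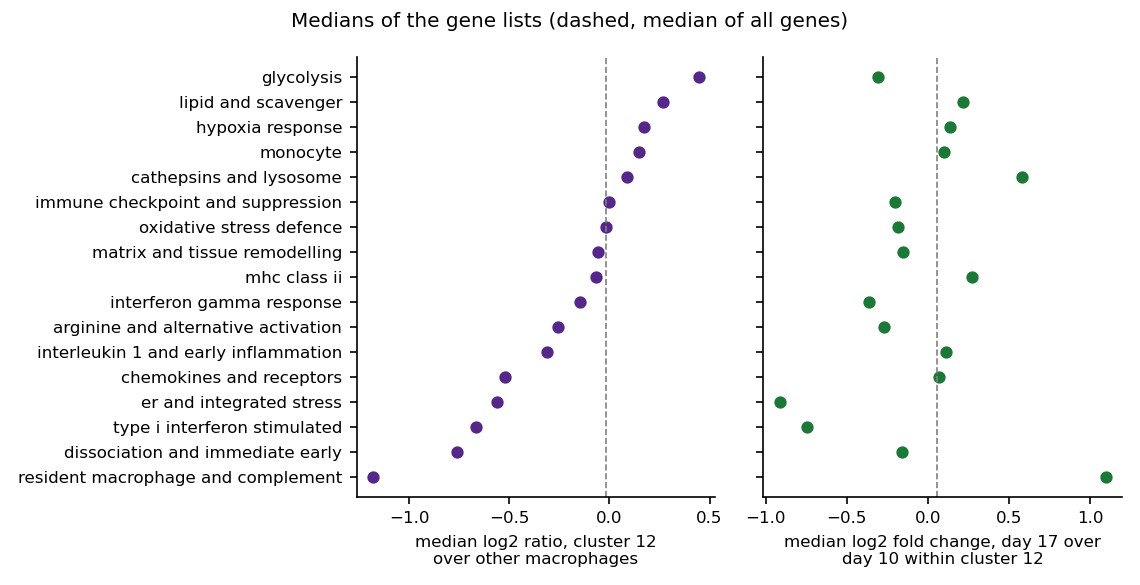
Median of each gene list with at least 10 members at 50 CPM or more, 1 point per list: left, the log2 ratio of cluster 12 to other macrophages over those members; right, the log2 fold change of day 17 over day 10 within the cluster over the members tested, with genes that had a group at 0 set to their bound. Dashed lines mark the median of all genes. On the left glycolysis is highest, at 0.45, and resident macrophage and complement genes lowest, at -1.18, and on the right the latter are highest, at 1.10.

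Lipid handling and monocyte genes were mixed. In the lipid and scavenger list 14 of 18 members were higher (median 0.27), with Cd36 and Marco, another scavenger receptor (197 against 92.7 CPM), past 2-fold higher and Apoe and Gpnmb past 2-fold lower. In the monocyte list 10 of 16 were higher (median 0.15), and the 4 past 2-fold were Fn1, S100a4, S100a6 and Itgam. Plac8, by contrast, was 244 against 537 CPM, Ly6c2, the Ly6C antigen of inflammatory monocytes, 109 against 172 CPM, and Ccr2, their chemokine receptor, 206 against 216 CPM (266 against 219 CPM without WT day 17 graft 3). The cluster therefore shared some but not all genes of recently arrived monocytes.

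Genes of resident macrophages and complement stood lowest. Of 16 members 13 were lower (median -1.18), 9 of them by at least 2-fold and 8 in each graft, and without WT day 17 graft 3 all 16 were lower (median -0.99). C1qa, a chain of complement C1q, was 739 against 2267 CPM, and C1qb and C1qc followed with log2 ratios of -1.29 and -1.21. Gas6, the bridging ligand for dying cells, was 16.5 against 88.6 CPM and Ms4a7 44.7 against 281 CPM. Pf4, platelet factor 4, was 466 against 354 CPM pooled, but lower than in other macrophages in 7 of the 9 grafts, and 180 against 357 CPM without WT day 17 graft 3.

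Interferon, chemokine and stress genes were lower too when all grafts were pooled. All 14 type I interferon genes were lower (median -0.66), among them Isg15 with 68.2 against 301 CPM and Rsad2, viperin, with 52.5 against 165 CPM. Of the interferon gamma genes 19 of 24 were lower (median -0.15), led by the T cell attractants Cxcl9 (222 against 974 CPM) and Cxcl10 (133 against 412 CPM), and of the chemokines and their receptors 15 of 21 (median -0.52, or -0.84 without WT day 17 graft 3). All 13 genes of ER and integrated stress were lower (median -0.56), and so were all 21 genes of tissue dissociation and early response (median -0.76), such as Jun with 221 against 716 CPM. MHC class II genes stood close to other macrophages, with a median of -0.07 (0.04 without WT day 17 graft 3) and Cd74, the invariant chain, at 12898 against 13996 CPM. Since 1028 and 1228 of the other macrophages, but 18 and 65 of the cluster's cells, came from the day 10 libraries, the pooled ratios also carry the day, and its part in them was not tested. Summed per graft, the interferon gamma list had medians of 6765 CPM in the cluster and 9928 CPM in other macrophages at day 10. At day 17 these were 4834 and 4883 CPM. The type I list had 2665 and 3247 CPM at day 10, and 1208 and 1578 CPM at day 17. Lower in each graft were 3 of 24 interferon gamma, 2 of 14 type I interferon and 3 of 21 chemokine genes. So were 2 of 13 ER stress and 7 of 21 dissociation genes.

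The arginine and alternative activation list did not move as 1 group. Of 18 members 5 were higher and 13 lower (median -0.26), and Arg1 was the sole member past 2-fold higher. Ccl24, eotaxin-2, was 52.7 against 26.6 CPM, but 179 of its 265 UMIs came from Rnls mutant day 17 graft 1, without which it was 21.1 against 28.2 CPM. Cd200r1, the receptor for CD200, was 70.3 against 39.4 CPM and Slc7a2, an arginine transporter, 113 against 88.6 CPM. Odc1 was 218 against 329 CPM, Mrc1, the mannose receptor, 674 against 790 CPM and Nos2 81.3 against 85.3 CPM. Without WT day 17 graft 3 Nos2 was 24.8 against 87.9 CPM. Sms, spermine synthase, was 62.4 against 46.5 CPM, so that the enzymes of polyamine synthesis went both ways.

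Cells of the cluster with and without an Arg1 UMI were compared within the 3 day 17 grafts that held at least 10 of each, as a description, since Arg1 chose both the cluster and the cells. Rnls mutant graft 1 gave 28 cells with and 125 without, Rnls mutant graft 3 22 and 51, and WT graft 3 102 and 105. The median UMIs were 5513.5 and 5846, 5749.5 and 5274, and 11556.5 and 9715. Over 1793 genes, log2 ratios with 10 CPM added were averaged over the 3 grafts. Ltc4s, leukotriene C4 synthase, led with 354 CPM in cells with Arg1 and 91.3 CPM in those without (mean log2 ratio 1.75), followed by Ly6c2 (1.51), Pf4 (1.44), Acod1, the itaconate synthase (1.40), and Fcgr1, the high-affinity IgG receptor (1.31). Of the hypoxia list 8 of 14 members at 100 CPM or more were higher in each of the 3 grafts and 3 lower in each (median 0.36), and of the glycolysis list 8 of 13 and 1 (median 0.47), beside 301 and 318 of the 1793 genes (median 0.01). Slc16a3 (1.13), Bnip3 (0.90) and Hilpda (0.80) were the highest of the 2 lists, and Pfkp, a phosphofructokinase (-0.45), and Mxi1 (-0.41) the lowest.

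Mgl2, a lectin of alternative activation, lay at the other end, with 17.0 CPM in cells with Arg1 and 117 CPM in those without (mean log2 ratio -2.56). Ccl24 (-2.47), Dcstamp (-2.38), Mmp12, macrophage elastase (-2.34), Tmem176b (-2.33), Ccdc80 (-2.19), Lyz1 (-1.63) and Lpl, lipoprotein lipase (-1.50), were lower as well, each in 3 of 3 grafts. Ccl24 and Mmp12 differed mostly in the Rnls mutant grafts, with log2 ratios of -0.22 and -0.24 in WT graft 3. Of the arginine and alternative activation list, Arg1 left out, 4 of 12 members were lower in each graft (Mgl2, Ccl24, Odc1 and Retnla) and 0 higher in each (median -0.05).

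Cluster 12 was found in 15 of the 16 grafts but in very unequal numbers. At day 10 the Rnls mutant grafts held 0 of 448, 3 of 296, 13 of 121 and 2 of 181 macrophages in it, and the WT grafts 2 of 483, 14 of 291, 5 of 301 and 44 of 218. At day 17 the Rnls mutant grafts held 153 of 1178, 95 of 1064, 73 of 833 and 10 of 315, and the WT grafts 6 of 262, 1 of 107, 207 of 885 and 23 of 196. The shares of the day 10 grafts spanned 0 to 20.2% and those of the day 17 grafts 0.935% to 23.4%, so that the days and the genotypes overlapped.

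**Figure D4:**
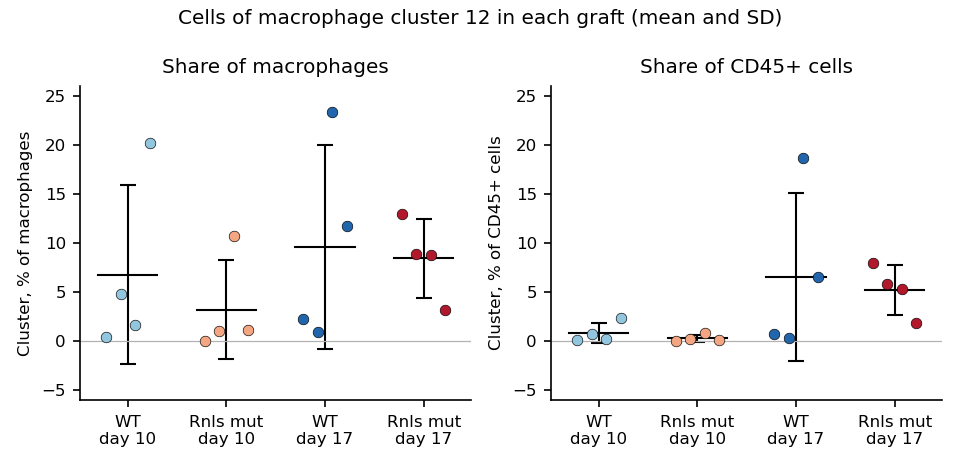
Cells of cluster 12 as a percentage of the macrophages and of all CD45+ cells of each graft; points are grafts, horizontal bars group means and error bars the SD (n = 4 grafts). The WT day 17 grafts span 0.935% to 23.4% of macrophages, nearly the whole range seen.

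The share did not differ between genotypes beyond the spread of grafts. It was 3.22% ± 5.04 of macrophages (SD, n = 4) in Rnls mutant and 6.77% ± 9.13 (SD, n = 4) in WT grafts at day 10, a difference of -3.55 points (two-sided exact permutation test, p = 0.543). At day 17 it was 8.46% ± 4.03 (SD, n = 4) and 9.59% ± 10.4 (SD, n = 4), a difference of -1.12 points (exact p = 0.83, where the smallest possible is 0.0286). As a share of CD45+ cells the differences were -0.584 points at day 10 (exact p = 0.371) and -1.30 points at day 17 (exact p = 0.886). Adjusted over the 6 comparisons made of each share, these 4 p-values lay between 0.557 and 0.886. With an SD of 10.4 points among WT grafts at day 17, a missed threshold does not show that the shares were alike.

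Between days the share is given with no test, because Fn1 and Apoe, genes that define the cluster, themselves differed between days. Of macrophages it was 4.99% ± 7.09 (SD, n = 8) at day 10 and 9.03% ± 7.31 (SD, n = 8) at day 17. Of CD45+ cells it was 0.57% ± 0.78 (SD, n = 8) and 5.87% ± 5.88 (SD, n = 8), and the Rnls mutant grafts of the 2 days did not overlap on that measure. WT day 17 grafts 1 and 2 lay at 0.686% and 0.286%, within the day 10 range.

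Gene levels inside the cluster were compared over the grafts with at least 10 of its cells: 1 Rnls mutant and 2 WT grafts at day 10, and 4 Rnls mutant and 2 WT grafts at day 17. The UMIs of the cluster's cells were summed per graft and fitted with edgeR's quasi-likelihood test over 6398 genes, and a gene was called at a Benjamini-Hochberg adjusted p of at most 0.05. The Rnls mutant day 10 group is 1 graft of 13 cells, whose spread was assumed to be that of the other groups.

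Arg1 chose the cluster, mostly through 1 day 17 graft, so its levels between groups are a description and have no test. At day 17 it was 189 CPM ± 139 (SD, n = 4) in Rnls mutant and 397 CPM ± 350 (SD, n = 2) in WT grafts, and the genotypes overlapped. The 3 grafts of day 10 had 0, 0 and 160 CPM and the 6 of day 17 had 48.8 to 644 CPM, so that the days overlapped as well. Without WT day 17 graft 3 the WT grafts would be left with 149.5 CPM at day 17, below the 160 CPM of WT day 10 graft 4. With grafts of any number of cells counted, the mean was lower at day 17 than at day 10 by 209 CPM.

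Few genes of the cluster were called between genotypes, with 2 WT grafts at day 17 and 1 Rnls mutant graft at day 10. At day 17, 2 genes were called (0.0313% of those tested), both lower in the Rnls mutant, and 210 genes had an unadjusted p under 0.05. The count was 21 without WT graft 4 and 32 with no filter on low counts. Ccl7, the monocyte chemoattractant MCP-3 (GRCm38 chr11:82045712-82047525, plus strand), was 74.2, 46.2, 72.2 and 65.1 CPM in Rnls mutant grafts 1 to 4 and 271 and 160 CPM in WT grafts 3 and 4. The groups did not overlap, and the log2 fold change was -1.76 (SE 0.28, edgeR adjusted p = 0.0169). In other macrophages of the same grafts Ccl7 was 261, 275, 289 and 502 CPM against 223 and 304 CPM, so that the genotypes overlapped there. The difference between the genotype effects in cluster 12 and in other macrophages was -1.96 (SE 0.31, edgeR adjusted p = 4.0e-06). The Ccl7 call was lost with DESeq2, with a minimum of 1 or 20 cells, without likely doublets, and without Rnls mutant graft 1 or 4 or WT graft 3. Within the cluster Ccl7 was also higher in cells with an Arg1 UMI (222 against 88.6 CPM, in 3 of 3 grafts). Such cells were 18.3%, 9.47%, 30.1% and 40% of the cluster in the Rnls mutant grafts, and 49.3% and 30.4% in WT. How far the Ccl7 differences follow Arg1, which chose the cluster, was not tested. Gm15056, a predicted gene, was 38.7, 30.8, 67.4 and 0 CPM against 231 and 98.0 CPM (log2 fold change -2.04, SE 0.35, edgeR adjusted p = 0.0223). Its call was lost with DESeq2, with a minimum of 1 or 20 cells, and without Rnls mutant day 17 graft 1, 2 or 4, WT day 10 graft 4 or WT day 17 graft 3.

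At day 10, and over both days, 1 gene each was called (0.0156%). Inhba, a subunit of activin A (GRCm38 chr13:16011851-16031621, plus strand), was 374 CPM in the Rnls mutant graft and 9.29 and 35.6 CPM in the WT grafts (log2 fold change 3.62, SE 0.59, edgeR adjusted p = 0.0219). Its genotype effect differed between days, the sole gene to do so (0.0156%, log2 difference -4.19, edgeR adjusted p = 0.0419). With 1 Rnls mutant graft at that day, both values rest on that graft. The day 10 call was lost with DESeq2, a minimum of 1 cell, the hashtag block and without likely doublets, and without Rnls mutant day 17 graft 4 or WT day 10 graft 2 or 4. The difference between days was lost in the same 4 settings and in 5 of 8 refits that left out a graft. Mgl2 (GRCm38 chr11:70130329-70137550, plus strand) was 532 CPM in the Rnls mutant graft and 232 and 88.9 CPM in those of WT at day 10. At day 17 it was 115, 79.6, 113 and 21.7 CPM in Rnls mutant and 31.0 and 15.5 CPM in WT. Averaged over the days it was higher in the Rnls mutant by a log2 fold change of 1.83 (SE 0.31, edgeR adjusted p = 0.0422), with overlap within day 17. That call was lost with DESeq2, a minimum of 1 cell and the hashtag block, and without Rnls mutant day 17 graft 1 or 3, WT day 10 graft 4 or WT day 17 graft 3. Mgl2 was lower in cells of the cluster with an Arg1 UMI (17.0 against 117 CPM), and the part of this in the genotype difference was not tested. By DESeq2 no gene was called between genotypes at day 10, at day 17 or over both days, where 136, 29 and 116 genes had an unadjusted p under 0.05.

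More of the cluster's genes were called between days than between genotypes. Over both genotypes 197 genes were called (3.08%), 121 of them higher (1.89%) and 76 lower (1.19%) at day 17. In WT grafts alone 27 genes were called (0.422%), in Rnls mutant grafts alone 45 (0.703%), and 12 in both. Of the 197, 22 had no UMI in a group, for which no fold is given. Arg1, which chose the cluster, is counted among the 197 and in the counts against other macrophages, and nothing is read from its calls. Cells with an Arg1 UMI were 0%, 0% and 15.9% of the cluster in the day 10 grafts fitted, and 9.47% to 49.3% in those of day 17. How far the day effects, and their differences from other macrophages, follow Arg1 was not tested. In the cluster the macrophage markers summed to between 15917 and 21839 CPM at day 10 and between 19736 and 27181 CPM at day 17, and the T cell markers to between 65.2 and 195 CPM and between 21.7 and 100.3 CPM, and their part in the day effect was not tested.

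Heat shock genes had the smallest p-values, all lower at day 17. Hspd1, the mitochondrial chaperonin HSP60, was 517, 687 and 646 CPM in the 3 grafts of day 10 and 43.4 to 133 CPM in the 6 grafts of day 17, with no overlap (log2 fold change -2.58, SE 0.25, edgeR adjusted p = 1.5e-06). Dnaja1, an HSP40 co-chaperone, was 1363, 2229 and 2723 CPM at day 10 and 236 to 673 CPM at day 17 (log2 fold change -2.40). Hsp90aa1 (-2.26), Dnajb1 (-2.86) and Hspe1 (-1.77) fell alongside. Other macrophages of the same grafts showed a like gap, with medians of 723 and 98.6 CPM for Hspd1 and of 3340 and 367 CPM for Dnaja1. Of these 5 genes only Hspe1 had a day effect that differed from that in other macrophages, smaller by 0.85 on the log2 scale (edgeR adjusted p = 0.0470). Of the dissociation and early response list 6 of 22 were called lower and 0 higher, and those 6 (Hspa1a, Hspa1b, Hspb1, Dnajb1, Hspe1 and Hsph1) are all heat shock genes.

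**Figure D5:**
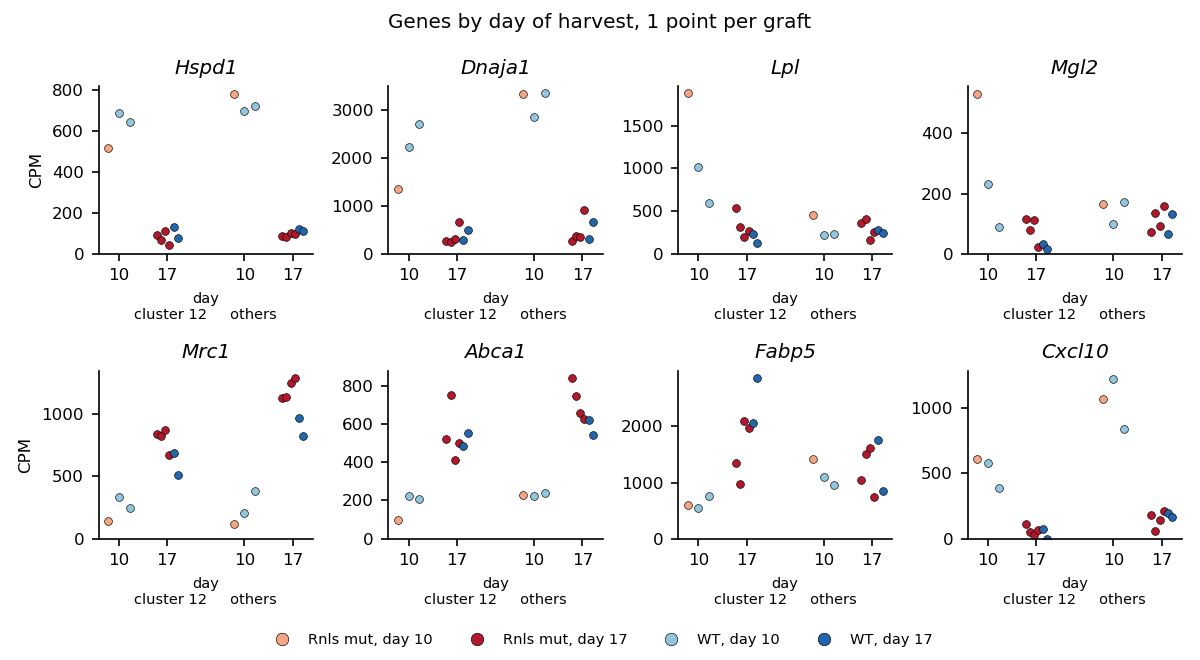
CPM of 8 genes at day 10 and day 17 in cluster 12 (left pair of each panel) and in other macrophages of the same grafts (right pair), on linear axes that start at 0 and differ between panels; points are grafts, coloured by group. In cluster 12 Hspd1 and Dnaja1 are lower, and Mrc1 and Abca1 higher, in each day 17 graft than in any day 10 graft.

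The bases before the start of these genes are shown because the heat shock factor binds inverted repeats of GAA, written here as GAANNTTC and TTCNNGAA. Of the genes named Hsp, Dnaj or Bag3 among those called lower at day 17, a choice made after their values were seen, 13 were found and 11 had a RefSeq window of 250 bases before the start. Of those 11, 7 (63.6%) held at least 1 of the 2 letter patterns. The share was 14.5% of 27025 genes with a window, 23.4% of the 64 genes lower and 18.7% of the 91 genes higher at day 17. Windows on 1 chromosome were left out of all these counts. Each pattern is its own reverse complement, so that both strands are read at once, and GAANNTTC was in 6.69% and TTCNNGAA in 7.17% of 32851 windows. Hspd1 and Hspe1 share 1 region read on opposite strands, and Hspa1a and Hspa1b are nearly identical copies, whose UMIs may be split between them. The 64 genes lower at day 17 include those 11, which were picked by name, so the shares are not a test. A gene counts if any of its windows holds a pattern. Dnaja1 is shown by its window 1, and its windows 2 and 3 held 0 matches. A match is a description of letters and not a site. No window was given for Arg1, Hsp90aa1 or Hsp90ab1. The windows of 4 of the 7 genes follow, 5′ to 3′ (GRCm38.p6, RefSeq), with the matched letters in capitals: Hspe1, chr1:55087898-55088147, plus strand; Dnaja1, chr4:40722218-40722467, plus strand; Hspb1, chr5:135887669-135887918, plus strand; Hspa1a, chr17:34972157-34972406, minus strand.
Hspe1: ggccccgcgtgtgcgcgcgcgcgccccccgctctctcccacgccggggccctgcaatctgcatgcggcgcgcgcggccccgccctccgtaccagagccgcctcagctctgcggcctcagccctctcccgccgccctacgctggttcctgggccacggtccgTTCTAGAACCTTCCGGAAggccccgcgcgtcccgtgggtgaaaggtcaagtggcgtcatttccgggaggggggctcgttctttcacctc
Dnaja1: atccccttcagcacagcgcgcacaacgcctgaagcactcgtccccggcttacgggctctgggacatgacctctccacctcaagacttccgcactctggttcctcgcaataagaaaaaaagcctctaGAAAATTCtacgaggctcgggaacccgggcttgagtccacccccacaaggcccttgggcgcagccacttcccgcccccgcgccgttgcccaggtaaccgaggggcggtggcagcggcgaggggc
Hspb1: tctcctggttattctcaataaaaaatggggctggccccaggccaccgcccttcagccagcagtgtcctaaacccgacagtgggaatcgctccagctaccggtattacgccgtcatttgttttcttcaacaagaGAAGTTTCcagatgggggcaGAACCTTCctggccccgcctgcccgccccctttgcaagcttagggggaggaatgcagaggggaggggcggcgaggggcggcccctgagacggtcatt
Hspa1a: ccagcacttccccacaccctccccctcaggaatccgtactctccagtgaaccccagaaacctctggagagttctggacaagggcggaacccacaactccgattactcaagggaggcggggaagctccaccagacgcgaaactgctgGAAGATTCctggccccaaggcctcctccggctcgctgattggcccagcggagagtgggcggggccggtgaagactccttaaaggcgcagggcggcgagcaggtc

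Some interferon genes and further stress genes fell with them. Of the type I interferon list 3 of 17 were called lower and none higher, namely Isg15 (log2 fold change -2.25), Oasl1 (-1.97) and Irf7 (-1.95), and the list's median was -0.75 beside 0.09 over all genes tested. Isg15 was 284, 186 and 119 CPM at day 10 and 15.4 to 109 CPM at day 17. Cxcl10, the interferon-induced T cell attractant, was 606, 576 and 388 CPM and then 0 to 110 CPM (log2 fold change -3.16). Of the ER and integrated stress list 5 of 13 were called lower, among them Hspa5, the ER chaperone BiP (-1.13), and Calr, calreticulin (-0.91), and its median was -0.91. Ms4a4c fell by 3.02 on the log2 scale. In other macrophages of the same grafts the type I interferon list fell too, from a median sum of 3247 CPM to 1578 CPM. Cxcl10 was 1070, 1222 and 840 CPM there at day 10 and 60.7 to 214 CPM at day 17.

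Genes of arginine use and alternative activation moved in both directions. Of 21 list members tested 3 were called higher (Retnla, Mrc1 and Arg1 itself) and 5 lower (Odc1, Ass1, Mgl2, Ccl17 and Socs1), and the median was -0.12, or -0.27 with genes that had a group at 0 set to their bound. Mrc1 was 142, 334 and 243 CPM at day 10 and 510 to 869 CPM at day 17 (log2 fold change 1.80, SE 0.27, edgeR adjusted p = 0.000309), without overlap, and its median in other macrophages was 208 and then 1134 CPM. Odc1 was 599, 409 and 661 CPM and then 110 to 175 CPM (log2 fold change -1.97). Ass1, which makes arginine from citrulline by way of argininosuccinate, fell by 1.34 on the log2 scale. Mgl2 was 532, 232 and 88.9 CPM and then 15.5 to 115 CPM (log2 fold change -2.42).

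Several lipid genes and genes of resident macrophages rose, with an exception in lipoprotein lipase. Abca1, the cholesterol exporter, was 97.3, 223 and 207 CPM at day 10 and 414 to 750 CPM at day 17 (log2 fold change 1.87, SE 0.30, edgeR adjusted p = 0.000747). Fabp5, a fatty acid carrier, was 591, 548 and 767 CPM and then 973 to 2872 CPM (log2 fold change 1.64). Trem2, a lipid receptor, was 0, 0 and 26.7 CPM and then 124 to 465 CPM. With the UMIs of the Rnls mutant grafts pooled this is at least 9.11-fold higher, against the floor of 3 counts. Apoe was 0, 297 and 41.5 CPM and then 330 to 4579 CPM. With UMIs pooled it was at least 73.9-fold higher in Rnls mutant grafts, against that floor, and 4.29-fold higher in WT grafts. Rnls mutant day 17 graft 2 gave 1783 Apoe UMIs, and grafts 1, 3 and 4 gave 523, 561 and 132. In WT, graft 3 of day 17 held 330 CPM and graft 2 of day 10 held 297 CPM. Those 4 were the members of the lipid list called higher, of 23 tested, and Lpl was the 1 called lower. The lipid list rose in other macrophages of the same grafts too, from a median sum of 8225 CPM to 12919 CPM, against 8795 and 12095 CPM in the cluster. Abca1 was 230, 225 and 239 CPM there at day 10 and 541 to 840 CPM at day 17.

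Lpl was 1879, 1012 and 596 CPM at day 10 and 129 to 538 CPM at day 17 (log2 fold change -2.27, SE 0.28, edgeR adjusted p = 2.4e-05). In other macrophages its median was 226 CPM at day 10 and 270 CPM at day 17. The day effect on Lpl differed between cluster 12 and other macrophages by -1.96 on the log2 scale (SE 0.24, edgeR adjusted p = 1.9e-10). Lpl at day 10 was thus higher in the cluster than in other macrophages. It was lower in cells of the cluster with an Arg1 UMI (168 against 400 CPM, in 3 of 3 grafts). The part of this in the day effect on Lpl was not tested.

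Of the resident macrophage and complement list 8 of 18 were called higher at day 17 and none lower, with a median of 1.40 (1.10 with genes that had a group at 0 set to their bound). Among them were Folr2, Selenop, F13a1, Pf4, Maf, Apoe and C3ar1. Selenop, the selenium carrier, was 202, 241 and 299 CPM at day 10 and 480 to 1384 CPM at day 17 (log2 fold change 1.57), and F13a1, coagulation factor XIII A, was 59.9, 130 and 110 CPM and then 175 to 440 CPM (1.71). Fn1 was 614, 808 and 166 CPM and then 1410 to 3591 CPM (log2 fold change 1.97, SE 0.39, edgeR adjusted p = 0.00454). Selenop, F13a1 and Apoe, low in the cluster against other macrophages, thus rose within it over time. They rose in other macrophages of the same grafts too, where the list had median sums of 5439 CPM at day 10 and 14833 CPM at day 17. In the cluster these sums were 3553 and 7306 CPM. Fn1 was 216, 139 and 56.4 CPM in other macrophages at day 10 and 398 to 1034 CPM at day 17.

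Of the cathepsin and lysosome list 3 of 22 were called higher, Ctsd (log2 fold change 0.99), Ctss (1.16) and Lgmn (1.40), and none lower. In the matrix list 4 of 18 were called higher (Timp2, Fn1, Vegfa and Ecm1). Vegfa, the vascular growth factor, was 29.9, 55.7 and 68.2 CPM and then 119 to 304 CPM (log2 fold change 1.92), and it was the sole hypoxia gene called of 21. No glycolysis gene was called of 19 (median -0.31). Sgk1, a kinase of salt and glucocorticoid responses (log2 fold change 2.36), Pitpnc1 (2.13) and Sash1 (2.11) rose as well. In other macrophages of the same grafts Pitpnc1 and Sash1 rose too, whereas Sgk1 was 139, 121 and 62.9 CPM and then 61.2 to 138 CPM. The cathepsin and lysosome list rose there from a median sum of 18212 CPM to 24746 CPM.

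How far the day effect was particular to cluster 12 was tested as the difference from other macrophages of the same grafts, with the graft as a block, over 9755 genes. Those other macrophages lay in different clusters on the 2 days: in the grafts fitted, clusters 4 and 13 held 60.1% and 19.9% of 559 cells at day 10 and 6.37% and 0.691% of 3910 at day 17, when clusters 2, 5 and 10 held 40.0%, 37.4% and 15.5%. A change within clusters and a change in their shares cannot be told apart in these differences, which include those given above for Lpl and Hspe1. The day effect differed for 110 genes (1.13%), and for 93 of them it was higher in the cluster. Of the interleukin-1 and early inflammation list 10 of 27 members were called with a day effect higher in the cluster and 0 lower, with a median of 1.05 beside 0.15 over all genes tested. Gm15056 had the smallest p-value, followed by Ccl5, a T cell chemoattractant, Il1b and Slpi. Ccl5 had medians of 2084 CPM at day 10 and 507 CPM at day 17 in other macrophages, and of 154 and 299 CPM in the cluster (log2 difference 3.98, edgeR adjusted p = 7.4e-17). Il1b, interleukin-1 beta, had 1594 and 531 CPM in other macrophages and 240.0 and 623 CPM in the cluster (log2 difference 2.59, edgeR adjusted p = 2.2e-12). Slpi, a protease inhibitor, had 667 and 66.3 CPM against 111 and 145 CPM (log2 difference 2.91). Nos2, Hilpda, Vegfa, Cxcl9 and Cd274, the ligand PD-L1, were among the others with a day effect higher in the cluster. Besides Lpl the genes Fcrls (-2.19) and Mgl2 (-1.39) were among the 17 with a lower one. A higher day effect need not be a rise. Cxcl9 was 299, 390 and 394 CPM in the cluster at day 10 and 95.1 to 282 CPM at day 17. In other macrophages it was 1800, 3112 and 1917 CPM and then 193 to 556 CPM. Cd274 was 307, 344 and 397 CPM and then 234 to 460 CPM in the cluster. In other macrophages it was 625, 617 and 429 CPM and then 187 to 388 CPM. DESeq2 called 50 genes in this comparison, 42 of them shared.

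The genotype effect differed between cluster 12 and other macrophages for 12 genes at day 10 (0.123%) and for 11 at day 17 (0.113%), and for none by DESeq2, where 282 and 46 genes had an unadjusted p under 0.05. At day 17 Pf4 (log2 difference -1.91), Ccl7, Ccl2, Cxcl1 and Spp1 had a genotype effect that was lower in the cluster, and Ccl24 (3.67), Ear1, Ccdc80, Fcrls, Igkc and Ighg2b one that was higher. Spp1 was near the floor in the cluster, with 5, 0, 0 and 0 UMIs in Rnls mutant and 23 and 0 UMIs in WT grafts. In other macrophages it was 6.16, 10.7, 17.0 and 243 CPM against 4.66 and 9.32 CPM. Pf4 was 88.9, 146, 474 and 326 CPM in Rnls mutant and 808 and 309 CPM in WT grafts, and Ccl24 187, 2.57, 96.3 and 0 CPM against 2.62 and 30.9 CPM, and in both genes the genotypes overlapped within the cluster. In cells of the cluster with an Arg1 UMI, Pf4 and Ccl7 were higher and Ccl24 and Ccdc80 lower, each in 3 of 3 grafts. The part of this in the differences was not tested. Igkc and Ighg2b, immunoglobulin genes, came almost wholly from 1 cell of Rnls mutant day 17 graft 1, which held 95.6% and 99.8% of their UMIs in the cluster. The differences for these 2 genes are therefore values of 1 cell.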

How the data were processed

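CD45+ cells of 16 grafts (4 libraries of 4 hashtags) were measured by 3' single-cell RNA-seq (10x Genomics). The authors deposited counts, whole numbers of UMIs per gene and cell, with cluster number, cell type and graft of each cell; per the labels, reads were processed with Cell Ranger on mm10, the version not given in the sources used here. The table held 32285 genes and 22441 cells, each with at least 1001 UMIs and at most 9.74% mitochondrial UMIs. The 4 hashtag libraries were not used, and some listed genes are not reported here by name.

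UMIs were summed per graft and divided by the total (CPM); log2 ratios added 1 CPM. Grafts with at least 10 cells entered the tests: edgeR 4.0.16 quasi-likelihood (TMM, filterByExpr, 4 groups in 1 fit, Benjamini-Hochberg, 0.05), with limma 3.58.1 and R 4.3.3, and two-sided exact permutation tests over grafts (SciPy 1.17.1). The alternative tests used DESeq2 1.42.0; other alternatives changed filters, minimum cells, denominators, grafts and doublets. Leaving single grafts out of pooled ratios was chosen after seeing the data. Scripts were tested on simulated data. Counting intervals cover counting error only. Scrublet (scanpy 1.11.5) called 1 of 22441 cells at its own threshold and so had not worked; the 6% of cells with the highest scores, 49 of them in the cluster, were left out as an alternative.

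Named genes were Arg1, the 12 highest and 8 lowest by ratio among genes at 100 CPM or more on the same side in every graft, at most 8 per direction and contrast by p, at most 4 per list by ratio at 50 CPM or more and at most 4 per list called, and the markers; others named in the text were chosen after their values were seen. The members and lists were chosen with earlier results of these data known. The labels do not say which grafts of the 2 flanks shared a mouse. Whether hashtag numbers pair grafts could not be told. Deviations of same-numbered grafts correlated between -0.076 and 0.093, mostly across days. Within day 17, grafts 3 gave 0.093 and grafts 4 gave -0.076, and no day 10 pair could be compared. With 2 WT grafts at day 17, their deviations from the mean mirror each other.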

Additional observations from a re-analysis of the deposited data

Results flagged for a closer look

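A graft far from the other 3 of its group was found in 13 of 66 groups of 4 grafts examined over the named genes and shares, by a rule that flags about 5% of groups of normally distributed values; several of the 13 are a few UMIs against 0, where that rate was not tested. The share of macrophages in the cluster was 10.7% in Rnls mutant day 10 graft 3 against 0 to 1.10% in its group, and that graft is the sole Rnls mutant graft of day 10 in the gene tests. Rnls mutant day 17 graft 4, with 10 cells, had Dnaja1 at 673 CPM against 236 to 303 CPM, Sgk1 at 282 CPM against 126 to 149 CPM and Hsph1 at 174 CPM against 13.6 to 31.3 CPM. Rnls mutant day 17 graft 1 had Ighg2b at 614 CPM against 0, Igkc at 1166 CPM against 7.70 to 21.7 CPM, Ccdc80 at 224 CPM against 38.5 to 62.6 CPM, and D530033B14Rik at 1.05, Gm26594 at 3.14 and Spp1 at 5.23 CPM, each against 0. Rnls mutant day 17 graft 2 had Ccl4 at 362 CPM against 217 to 234 CPM and Selenop at 1384 CPM against 608 to 653 CPM, and graft 3 had Ccl5 at 1360 CPM against 152 to 354 CPM.

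Effects that differed between groups by a test of the difference itself (edgeR) were the genotype effect between days, for 1 gene, the genotype effect between the cluster and other macrophages, for 12 genes at day 10 and 11 at day 17, and the day effect between the cluster and other macrophages, for 110 genes.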

How the results depend on the processing

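The cluster rests on few cells at day 10 (83 of 651), on 1 Rnls mutant and 2 WT grafts there, and on WT day 17 graft 3 for most of its Arg1. Counts of genotype calls moved with nearly every setting, those between days less so. In the order day 10, day 17, both days and difference between days, genotype calls were 1, 2, 1 and 1, and they were 0 in all 4 with DESeq2 and with a minimum of 1 cell, 14, 32, 26 and 8 with no filter, and at day 17 0 with a minimum of 20 cells; without likely doublets they were 0, 1, 1 and 0. Calls between days in WT and Rnls mutant grafts, 27 and 45, were 95 and 127 with no filter and 8 and 20 with a minimum of 1 cell, 16 in WT with a minimum of 20 cells, and 23 in Rnls mutant without likely doublets. DESeq2 called 0, 0 and 50 genes in the comparisons with other macrophages, for 12, 11 and 110. Over both genotypes the day calls were 134, 274 and 168 with DESeq2, no filter and a minimum of 1 cell, of which 112, 191 and 105 were shared with the 197. With the hashtag number as a replicate block, which is not known to pair the grafts, calls were 16, 3, 16 and 17 for genotype and 331, 113 and 108 for both genotypes, WT and Rnls mutant between days.

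Grafts with fewer than 10 cells turned the Arg1 difference between days: with a minimum of 1 cell it was -222 CPM in WT, -196 CPM in Rnls mutant and -209 CPM over both, through 1 cell each in WT day 10 graft 1 and Rnls mutant day 10 graft 4. The Arg1 log2 fold change between genotypes at day 17 was -1.13, and -1.15 with no filter; no test of it is read, since Arg1 chose the cluster. As a share of macrophages and monocytes the cluster was 6.61 points larger at day 17. With each graft weighted equally 13 genes were at least 2-fold higher, for 24. Without WT day 17 graft 3 the Arg1 log2 ratio was 1.04, for 2.17, and 26 genes were 2-fold higher and 83 lower; the medians of the hypoxia and MHC class II lists changed sign (0.17 to -0.07 and -0.07 to 0.04).

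Leaving out 1 graft at a time gave 0 to 3, 0 to 21 and 0 to 10 genotype calls (day 10, day 17, both), 0 to 3 for the difference between days, 110 to 212, 11 to 41 and 31 to 75 day calls (both, WT, Rnls mutant), and 3 to 20, 4 to 22 and 60 to 125 calls against other macrophages. The extremes came without WT day 17 graft 4 (21 calls at day 17) and without WT day 10 graft 2 (110 day calls and 60 against other macrophages). The share of macrophages changed with genotype by -6.06 to 0.92, -4.01 to 3.48 and -3.78 to -0.0373 points (day 10, day 17, both) and with day by -1.78 to 7.29, 3.74 to 7.76 and 1.73 to 6.27 points (WT, Rnls mutant, both). The share of CD45+ cells changed by -0.835 to -0.0842, -3.38 to 2.73 and -1.98 to 1.07 points and by 1.64 to 7.75, 4.05 to 6.08 and 3.29 to 6.35 points. Arg1 changed by -160 to 0, -455 to 39.9 and -267 to -20.0 CPM and by 69.5 to 564, 127 to 236 and 129 to 377 CPM, and its log2 fold change at day 17 was -1.94 to 0.26. Where a value moved, the cause was not tested.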

Other observations

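Grafts with fewer than 10 cells of the cluster stood outside the gene tests. In WT day 10 graft 1, 1 of 2 cells held all 21 Arg1 UMIs (1521 CPM), and in Rnls mutant day 10 graft 4, 1 of 2 cells held all 20 (1155 CPM). No Arg1 UMI was found in the 3 cells of Rnls mutant day 10 graft 2, the 5 of WT day 10 graft 3, the 6 of WT day 17 graft 1 and the 1 of WT day 17 graft 2. WT day 17 grafts 1 and 2 held 4 and 1 Arg1 UMIs in all their macrophages, 2.13 and 1.17 CPM outside the cluster, whereas WT day 17 graft 3 held 2114 and graft 4 held 63, so the WT grafts of 1 day and library spanned 1 to 2114 Arg1 UMIs. At day 10 Arg1 lay mostly in cluster 4, at 132 to 381 CPM in the 4 Rnls mutant grafts and 9.21 to 160 CPM in the 4 WT grafts.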
